A study of Mus musculus with 6 samples.

Results

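Secreted Wnt antagonists are proteins that cells release to dampen Wnt signalling, and 10 of their genes were followed in the bone marrow of Cbx2-/- and wild-type mice: Sfrp1, Sfrp2, Sfrp4, Frzb, Dkk1, Dkk2, Dkk3, Sost, Wif1 and Notum. The genes were taken by symbol, not by their values, and all 10 were present among the 22838 genes of the deposited table. The groups were 3 Cbx2-/- mice and 3 wild-type mice, all of strain 129/C57BL/6 and 3 weeks old. Mean body weight was 4.0 g in the Cbx2-/- group and 12.3 g in the wild-type group, per the labels. Each library came from marrow of the tibia and femur, and the labels state neither the sex of the mice nor the nature of the Cbx2 allele. Cbx2 encodes a chromobox subunit of Polycomb repressive complex 1, and the title of the series asks how it bears on bone-forming and fat-forming differentiation in long bones after birth.

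Wnt ligands bind Frizzled receptors together with the co-receptors LRP5 and LRP6, which stabilises beta-catenin and favours bone formation over fat formation in skeletal progenitors. The antagonists act at separate steps. Secreted frizzled-related proteins (Sfrp1, Sfrp2, Sfrp4 and Frzb, also known as Sfrp3) carry a Frizzled-like cysteine-rich domain, and Wif1 carries a WIF domain; both kinds bind Wnt ligands. Notum is an enzyme that removes the lipid from Wnt ligands. Dkk1 and Dkk2 bind LRP5 and LRP6, Dkk3 is a divergent relative without that well-established activity, and Sost encodes sclerostin, an LRP5 and LRP6 inhibitor made mainly by osteocytes, the cells embedded in bone.

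Levels are given in FPKM, a read measure per transcript length and sequencing depth, so each value is relative to the rest of its library. Summed FPKM ran from 599600.7 to 741191.5 per library. One read was worth about 0.073 to 0.09 FPKM in a transcript of 1 kilobase by an estimate from low values and GENCODE transcript lengths, and total read numbers were not given in the sources used here. Cbx2 itself was at 2.11, 1.87 and 1.88 FPKM in the Cbx2-/- libraries, against 2.90, 3.83 and 2.75 FPKM in the wild-type libraries (limma adjusted p = 0.0558). The groups did not overlap, but transcript remained in the Cbx2-/- libraries, and no source used here says which part of the gene the allele removes. The blood cell markers Ptprc, Elane, Mpo, Hbb-b1 and Cd79a were above 0 in all 6 libraries, and Ly6g was not matched in the table. Skeletal muscle transcripts set apart 2 libraries: 8 muscle markers summed to 382, 445 and 14 FPKM in Cbx2-/- replicates 1, 2 and 3, and to 23.1, 24.4 and 33.5 FPKM in wild-type replicates 1, 2 and 3.

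The upstream sequences of 3 members are shown because of the 2 patterns described below. Wif1 fell in Cbx2-/- marrow, at the edge of the threshold, while Sost and Dkk1 split the Cbx2-/- libraries. The patterns are not exclusive, as Wif1 was also highest among Cbx2-/- libraries in replicate 3. The part of these sequences in the expression values was not tested. Capitals mark CpG dinucleotides. As background, mammalian Polycomb complexes are commonly found on CpG-rich DNA. Each run is 5′ to 3′ on the gene's own strand from RefSeq (GRCm38.p6, the assembly of mm10), and stops before the start annotated by RefSeq or by GENCODE vM21, whichever lies further upstream. The Wif1 stretch lay at chr10:121033754-121033959 on the plus strand, the Sost stretch at chr11:101967016-101967265 on the minus strand and the Dkk1 stretch at chr19:30549666-30549746 on the minus strand.
Wif1: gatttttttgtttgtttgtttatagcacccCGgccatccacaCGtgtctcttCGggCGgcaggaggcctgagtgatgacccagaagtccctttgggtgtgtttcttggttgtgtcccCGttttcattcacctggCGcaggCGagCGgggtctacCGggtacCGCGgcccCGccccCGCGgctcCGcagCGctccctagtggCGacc
Sost: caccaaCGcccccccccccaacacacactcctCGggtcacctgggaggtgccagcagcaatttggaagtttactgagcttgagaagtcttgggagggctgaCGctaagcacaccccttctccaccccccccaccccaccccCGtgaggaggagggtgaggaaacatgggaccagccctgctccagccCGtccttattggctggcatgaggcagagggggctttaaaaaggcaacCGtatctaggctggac
Dkk1: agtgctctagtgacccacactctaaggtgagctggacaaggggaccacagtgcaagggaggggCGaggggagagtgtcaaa
The Wif1 stretch held 17 CpG in 206 bases, the Sost stretch 6 in 250 bases and the Dkk1 stretch 1 in 81 bases. Of the 10 members, 6 had an entry in the promoter table (Sfrp2, Frzb, Dkk1, Dkk2, Sost and Wif1), and Sfrp1, Sfrp4, Dkk3 and Notum had none. Over the 250 bases before the RefSeq start, the ratio of observed to expected CpG was 0.858 for Wif1, 0.644 for Frzb, 0.640 for Sfrp2, 0.449 for Dkk2, 0.260 for Dkk1 and 0.260 for Sost, beside a median of 0.374 over 32841 windows. A TATA box (TATAAA) was found in the windows of Wif1, Dkk1 and Dkk2 and in 12.4% of all windows. The TCF/LEF core CTTTG was found 4 times in Dkk1 and once each in Wif1, Frzb and Dkk2, and in 48.6% of all windows. Of these, the TATA box and the 4 TCF/LEF cores of Dkk1 are not in the stretch printed above, which is shorter than the window searched. The RUNX core TGTGGT was found once, in Dkk1, and in 14.05% of all windows. Both strands were searched, each motif on its own with overlaps kept, and a match describes letters only.

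Expression of the antagonists was led by the same pair of genes in both genotypes. In Cbx2-/- marrow the order by mean FPKM was Sost, Wif1, Dkk1, Sfrp4, Sfrp1, Dkk3, Notum, Sfrp2, Frzb and Dkk2. In wild-type marrow it was Wif1, Sost, Sfrp4, Dkk1, Dkk3, Sfrp1, Notum, Frzb, Sfrp2 and Dkk2. Neighbours whose ranges over libraries overlapped were Sost and Wif1, Dkk1 and Sfrp4, Sfrp1 and Dkk3, Dkk3 and Notum, and Frzb and Dkk2 in Cbx2-/- marrow. In wild-type marrow they were Wif1 and Sost, Sost and Sfrp4, Dkk1 and Dkk3, Sfrp1 and Notum, and Frzb and Sfrp2. Summed over the 10 genes, antagonist transcripts reached 26.5, 36.6 and 87.5 FPKM in Cbx2-/- replicates 1, 2 and 3 and 90.4, 89.7 and 57.5 FPKM in wild-type replicates 1, 2 and 3. Sfrp4 took 3.28% to 9.98% of that sum in Cbx2-/- libraries, against 10.5% to 18.6% in wild-type libraries, and these shares narrowly did not overlap. The shares of Frzb (0.169% to 0.389% in Cbx2-/-, 0.759% to 0.911% in wild-type libraries) did not overlap either. Those of Dkk2 were narrowly separate in the other direction (0.146% to 0.314% against 0.0638% to 0.135%). Dkk2 rested on only about 2.2 to 11 reads per Cbx2-/- library and 2.4 to 4 per wild-type library. Its FPKM values overlapped between genotypes. Each share depends on the other members, and Sost alone took 56.9% of the sum in Cbx2-/- replicate 3.

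**Figure D1:**
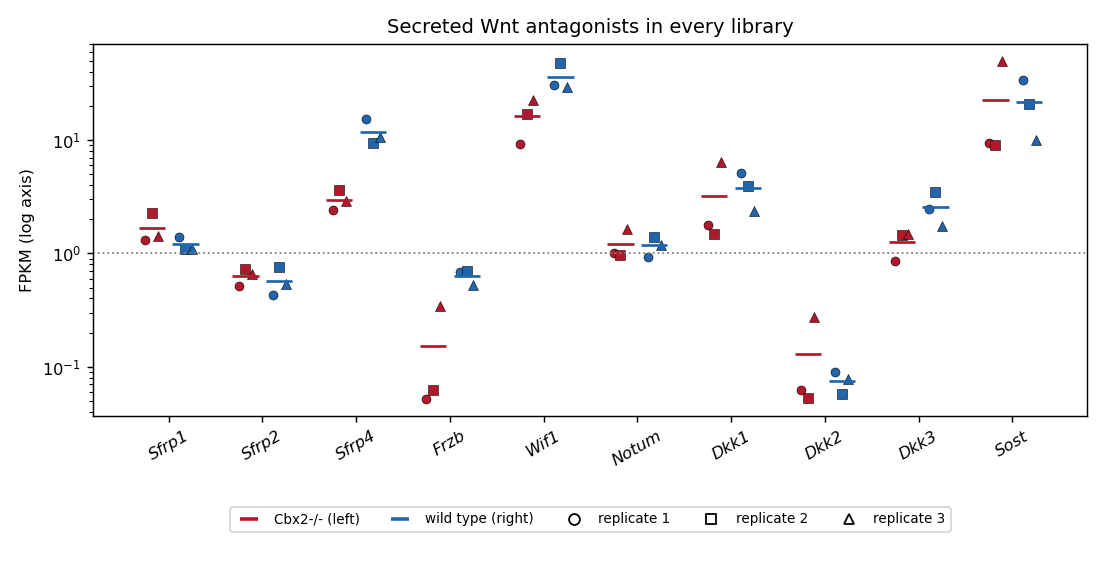
FPKM (log axis) of the 10 antagonist genes, with Cbx2-/- libraries left of wild-type libraries; each symbol is 1 library, each horizontal line a mean of 3, and the dotted line is 1 FPKM. Sfrp4, Frzb, Wif1 and Dkk3 have separate groups. Cbx2-/- replicate 3 (triangle) is the highest Cbx2-/- library for Sost, Dkk1, Dkk2 and Frzb, and by a smaller margin for Wif1, Notum and Dkk3.

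Differences between genotypes were tested on log2(FPKM + 1) with limma, adjusted by Benjamini-Hochberg over all 12006 genes that reached 1 FPKM in 3 or more libraries. Of the 10 members, 7 passed this filter and 3 (Sfrp2, Frzb and Dkk2) did not. Of the 7, 2 fell (Sfrp4 and Wif1), 0 rose and 5 did not pass an adjusted p of 0.05, while 8.31% of all tested genes fell and 8.8% rose. At an unadjusted p under 0.05 the counts were 3 lower and 0 higher, and no other tool was run. No share of all tested genes was taken at that unadjusted level. Such counts, here and for the lists below, therefore have no background beside them. The median difference of the 7 was -0.33, beside 0.02 over all tested genes. In 3 of the 7 (Sfrp4, Wif1 and Dkk3) every Cbx2-/- library lay below every wild-type library, as was the case in 18.2% of all tested genes. The p-values measure the spread between these 6 mice.

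Among the Wnt-binding antagonists, Sfrp4 showed the clearest fall. Sfrp4 (chromosome 13, 19623175 to 19632823, plus strand, mm10) was at 2.41, 3.65 and 2.87 FPKM in Cbx2-/- libraries, against 15.2, 9.44 and 10.7 FPKM in wild-type libraries. The highest Cbx2-/- library thus lay well under the lowest wild-type library. The means were 2.98 ± 0.629 FPKM in Cbx2-/- and 11.8 ± 3.02 FPKM in wild-type marrow (SD, n = 3 each), 3.95-fold lower in Cbx2-/- mice, with a log2 difference of -1.67 ± 0.20 (SE) and a limma adjusted p of 0.00221. It remained past the threshold in all 17 alternative fits, with adjusted p from 0.00119 to 0.0147. The exact two-sided permutation test over libraries gave p = 0.1, the smallest that 3 against 3 allow. In RNA from whole marrow, fewer cells of a type and less RNA per cell cannot be told apart.

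Wif1 (chromosome 10, 121034004 to 121100642, plus strand), the most abundant antagonist of wild-type marrow, fell as well. It was at 9.13, 17.0 and 22.7 FPKM in Cbx2-/- libraries, against 30.6, 48.1 and 29.2 FPKM in wild-type libraries. The groups were separate, with Cbx2-/- replicate 3 nearest to the wild-type range. The means were 16.3 ± 6.81 FPKM in Cbx2-/- and 35.9 ± 10.5 FPKM in wild-type marrow (SD, n = 3 each), 2.21-fold lower in Cbx2-/- mice (log2 difference -1.15 ± 0.33, SE, limma adjusted p = 0.0489). This call lay at the edge of the threshold. It was lost in 13 of 17 alternative fits. Over all 17 the limma adjusted p ranged from 0.00748 to 0.165, and the difference stayed negative in all of them. Leaving out Cbx2-/- replicate 3 gave -1.41 (adjusted p = 0.00748) and leaving out Cbx2-/- replicates 1 and 2 together gave -0.61 (adjusted p = 0.109).

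Frzb (chromosome 2, 80411970 to 80447396, minus strand), which binds Wnt ligands outside the cell and is known from cartilage, was low throughout and under the filter. It was at 0.0520, 0.0619 and 0.340 FPKM in Cbx2-/- libraries, against 0.686, 0.702 and 0.524 FPKM in wild-type libraries. By the read-worth estimate these values correspond to about 2.2, 2.1 and 12 reads in Cbx2-/- libraries and to about 26, 25 and 22 reads in wild-type libraries. The mean was 4.21-fold lower in Cbx2-/- marrow and the groups did not overlap, which also held, in the lower direction, for 8.19% of the 6102 genes with reads but under the filter. With no filter, Frzb had a difference of -0.52 ± 0.11 (SE, limma adjusted p = 0.035), where 5.03% of 18108 genes fell. Its exact two-sided permutation p was 0.1. Without Cbx2-/- replicates 1 and 2 the difference was -0.29, so its size rests on those libraries.

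The other Wnt-binding antagonists and Notum gave no call. Sfrp1 (chromosome 8, 23411502 to 23449632, plus strand) was at 1.32, 2.26 and 1.41 FPKM in Cbx2-/- libraries and at 1.40, 1.10 and 1.10 FPKM in wild-type libraries, with overlapping groups and a difference of 0.26 ± 0.17 (SE, limma adjusted p = 0.338). Sfrp2 (chromosome 3, 83766321 to 83774314, plus strand) was at 0.519, 0.731 and 0.658 FPKM in Cbx2-/- libraries and at 0.429, 0.759 and 0.537 FPKM in wild-type libraries, a spread within each genotype as wide as that between them (exact two-sided permutation p = 0.7). Notum (chromosome 11, 120653789 to 120660837, minus strand), the Wnt-inactivating lipase, was at 1.0, 0.960 and 1.64 FPKM in Cbx2-/- libraries and at 0.924, 1.40 and 1.20 FPKM in wild-type libraries. Its difference of 0.01 ± 0.17 (SE) was close to nil (limma adjusted p = 0.979). Antisense genes overlap Sfrp2 and Notum in GENCODE vM21. No source used here states whether strand was used in counting, so these 2 levels may include antisense reads and are uncertain.

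Among the antagonists that act at the co-receptors, Sost and Dkk1 split the Cbx2-/- libraries among themselves, as the Wnt-binding Frzb did: Cbx2-/- replicate 3 was 5.46-fold (Sost), 3.88-fold (Dkk1) and 5.98-fold (Frzb) above the mean of the other 2. Sost (chromosome 11, 101962458 to 101967015, minus strand) was at 9.31, 8.95 and 49.8 FPKM in Cbx2-/- libraries, against 33.5, 20.8 and 10.1 FPKM in wild-type libraries. Cbx2-/- replicate 3 held the highest value of the 6 and the other 2 Cbx2-/- libraries the lowest. The means were 22.7 ± 23.5 FPKM in Cbx2-/- and 21.5 ± 11.7 FPKM in wild-type marrow (SD, n = 3 each), and the difference of -0.22 ± 0.66 (SE) did not pass (limma adjusted p = 0.858). The direction rested on single libraries, at -1.0 without Cbx2-/- replicate 3 (adjusted p = 0.0866), from 0.15 to 0.18 without wild-type replicate 1 or Cbx2-/- replicate 1 or 2, and 1.33 without Cbx2-/- replicates 1 and 2 together (adjusted p = 0.0705).

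Dkk1 (chromosome 19, 30545885 to 30549496, minus strand) followed the same split at a lower level. It was at 1.78, 1.48 and 6.33 FPKM in Cbx2-/- libraries, against 5.10, 3.92 and 2.38 FPKM in wild-type libraries, again with the extremes both in Cbx2-/- mice. The difference of -0.33 ± 0.41 (SE) did not pass (limma adjusted p = 0.638). Without Cbx2-/- replicate 3 it was -0.83 and passed (adjusted p = 0.0293), in a fit where 14.3% of all tested genes fell, and without Cbx2-/- replicates 1 and 2 it was 0.65 (adjusted p = 0.118). The ratio of Dkk1 to Sost, both per length, was 0.191, 0.166 and 0.127 in Cbx2-/- libraries and 0.152, 0.189 and 0.236 in wild-type libraries, with overlapping groups. Within the Cbx2-/- group Dkk1 varied 4.27-fold and Sost 5.57-fold between the lowest and the highest library.

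Dkk2 and Dkk3 complete the Dickkopf genes. Dkk2 (chromosome 3, 132085292 to 132180304, plus strand) was at 0.0623, 0.0534 and 0.275 FPKM in Cbx2-/- libraries and at 0.0901, 0.0572 and 0.0777 FPKM in wild-type libraries. These are about 2.2 to 11 reads per Cbx2-/- library and about 2.4 to 4 reads per wild-type library, so no genotype difference was detectable at this depth (exact two-sided permutation p = 0.9). The highest value again came from Cbx2-/- replicate 3. Dkk3 (chromosome 7, 112116019 to 112159057, minus strand) was at 0.862, 1.44 and 1.48 FPKM in Cbx2-/- libraries, against 2.47, 3.47 and 1.75 FPKM in wild-type libraries. The groups did not overlap and the mean was 2.03-fold lower in Cbx2-/- marrow, but the difference of -0.64 ± 0.21 (SE) did not pass (limma adjusted p = 0.076). It passed in 1 of 17 alternative fits, that without Cbx2-/- replicate 3 (difference -0.71, adjusted p = 0.0411).

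**Figure D2:**
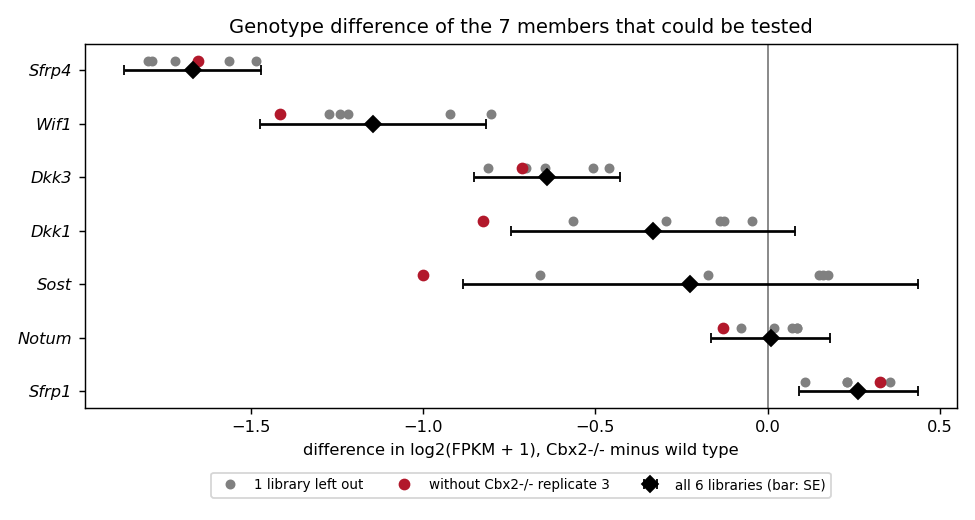
Difference in log2(FPKM + 1), Cbx2-/- minus wild type, for the 7 members that could be tested; diamonds with bars are the fit of all 6 libraries with its SE, grey points leave out 1 library each, and red points leave out Cbx2-/- replicate 3. Sfrp4 stays between -1.80 and -1.48 whichever library is left out, whereas Sost lies between -1.0 and 0.18 and crosses 0.

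Markers of the cells known to make these antagonists moved with the members in part. Of the 6 osteocyte markers, Mepe, Dmp1, Phex and Irx5 were highest among Cbx2-/- libraries in replicate 3, as Sost and Dkk1 were, and Pdpn and Fgf23 were not. Mepe was at 12.7, 14.5 and 57.6 FPKM in Cbx2-/- libraries, against 27.9, 20.9 and 13.6 FPKM in wild-type libraries. Dmp1 was at 21.4, 11.4 and 74.6 FPKM in Cbx2-/- libraries, against 38.2, 51.2 and 39 FPKM in wild-type libraries. Pdpn was at 0.580, 1.30 and 0.832 FPKM in Cbx2-/- libraries, against 3.38, 4.39 and 2.76 FPKM in wild-type libraries. Fgf23 ran the other way from Sost, at 1.61, 0.178 and 0.0252 FPKM in Cbx2-/- libraries and at 0.149, 0.0661 and 0.184 FPKM in wild-type libraries. All 6 osteocyte markers, with Dmp1 and Mepe making up most of the level, summed to 40.6, 30.4 and 142 FPKM in Cbx2-/- replicates 1, 2 and 3 and to 62.7 to 88.4 FPKM in wild-type libraries, and none was at 0 in any library. Of the 5 that could be tested, 1 fell (Pdpn), 0 rose and 4 did not pass, while 8.31% of all tested genes fell and 8.8% rose. At an unadjusted p under 0.05 by limma, 3 were lower and 0 higher. The ratio of Sost to Mepe, both per length, was 0.731, 0.617 and 0.865 in Cbx2-/- libraries and 1.2, 0.996 and 0.739 in wild-type libraries, with overlapping groups (exact two-sided permutation p = 0.2). The part of osteocyte content in the Sost and Dkk1 values was not tested.

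Osteoblast markers were lower in all 3 Cbx2-/- libraries, unlike Sost and Dkk1. Of 9 markers, 7 fell, 0 rose and 2 did not pass (8 lower and 0 higher at an unadjusted p under 0.05 by limma). Over all tested genes, 8.31% fell and 8.8% rose. Their summed level was 1020.2 to 1783.2 FPKM in Cbx2-/- libraries, against 9524.4 to 15911 FPKM in wild-type libraries, with no marker at 0. The gene of the osteoblast product osteocalcin (Bglap) was at 62.9, 129 and 82.6 FPKM in Cbx2-/- libraries, against 1191, 1523 and 1052 FPKM in wild-type libraries. The Wif1 to Bglap ratio, both per length, was 0.145, 0.132 and 0.275 in Cbx2-/- libraries and 0.0257, 0.0316 and 0.0278 in wild-type libraries. The Sfrp4 to Bglap ratio was 0.0383, 0.0283 and 0.0348 in Cbx2-/- libraries and 0.0127, 0.00620 and 0.0101 in wild-type libraries. Both ratios were higher in every Cbx2-/- library (exact two-sided permutation p = 0.1 each, the smallest possible). Against Ibsp, another bone matrix gene, the ratios of both genes overlapped between genotypes (exact permutation p = 0.9 for Wif1 and 0.5 for Sfrp4).

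Other marker lists are given beside the members for the same reason. Chondrocyte markers, relevant to Frzb, summed to 4.82, 5.11 and 2.18 FPKM in Cbx2-/- libraries, against 27 to 29.1 FPKM in wild-type libraries, and 1 of the 2 that could be tested fell (Col2a1). Of the 10, 5 were at 0 in at least 1 library. The sum, most of it Col2a1, was lowest in Cbx2-/- replicate 3, where Frzb was highest among Cbx2-/- libraries, but Sox9 (0.101, 0.0405 and 0.106 FPKM in Cbx2-/- libraries) and Matn1 were highest there within that group. Fibroblast markers summed to 101 to 158 FPKM in Cbx2-/- libraries, against 257 to 416 FPKM in wild-type libraries, and 3 of 4 tested fell while 1 rose (Pi16). Tendon, periosteum and joint markers summed to 20.4 to 40.1 FPKM in Cbx2-/- libraries, against 26.1 to 54.6 FPKM in wild-type libraries, with 0 of 4 tested past the threshold by limma (1 lower and 2 higher at an unadjusted p under 0.05). Among 6 markers of marrow stromal cells 3 rose, while Cxcl12, Foxc1 and Vcam1 did not pass. Among 6 tested of adipocytes 5 rose and Adipoq did not pass, and among 6 of endothelium 4 rose while Pecam1 and Vwf did not pass. Over all tested genes, 8.8% rose and 8.31% fell. The muscle-bearing libraries, Cbx2-/- replicates 1 and 2, are those with low Sost and Dkk1, and the part of muscle RNA in these values was not tested. The part of these other cell types in the fall of Sfrp4 and Wif1 was not tested either.

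**Figure D3:**
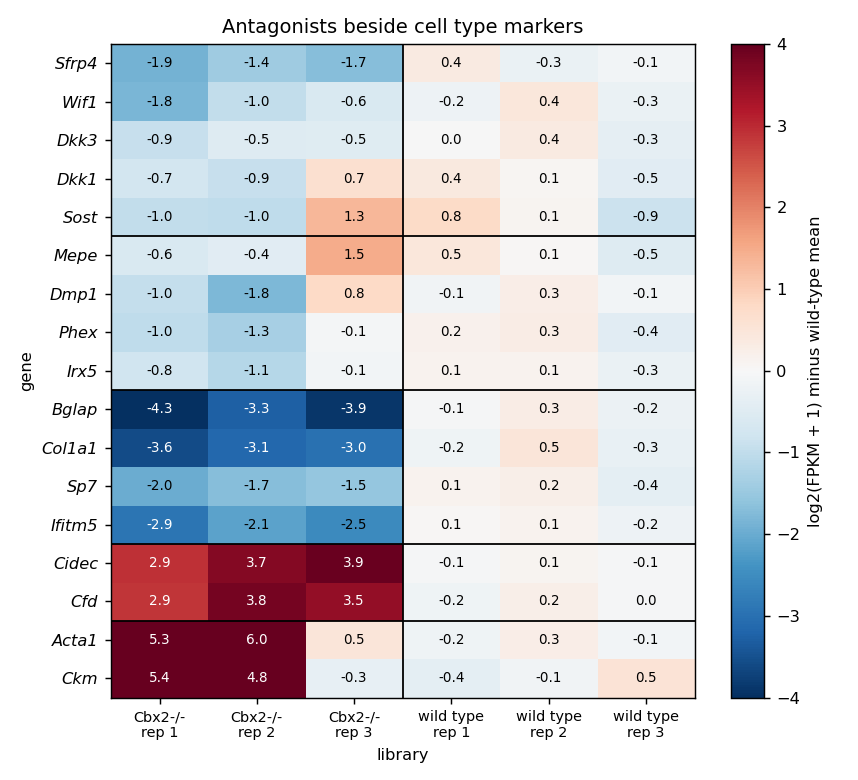
log2(FPKM + 1) minus the wild-type mean in each library (columns, Cbx2-/- left of wild type) for 5 antagonists and, below them in blocks, osteocyte, osteoblast, adipocyte and skeletal muscle markers; colour stops at 4 units either way. Only part of each marker list is drawn, and the osteocyte markers Pdpn and Fgf23 are among those left out. Sost and Dkk1 share the sign of Mepe and Dmp1 in each Cbx2-/- library, but not that of Phex and Irx5 in Cbx2-/- replicate 3. Phex and Irx5 are below the wild-type mean in all 3 Cbx2-/- libraries, as are Sfrp4, Wif1 and the osteoblast markers drawn. Acta1 and Ckm are high in Cbx2-/- replicates 1 and 2.

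The genes most like each tested member in pattern were sought among 11265 other tested genes, by the root mean square (RMS) difference of centred log2(FPKM + 1) over the 6 libraries. For Sost the nearest was Mepe (RMS difference 0.29), followed by Dkk1 (0.37) and Fam229a (0.38), beside a spread of 0.92 for Sost about its own mean. For Dkk1 they were Fam229a (0.16), Pls3 (0.19) and Ackr3 (0.20), beside a spread of 0.58. For Wif1 they were Omd (0.12), Slc36a2 (0.18) and Ffar1 (0.20), beside 0.71. For Sfrp4 they were Slc4a1 (0.13), Hagh (0.14) and Cdc25b (0.15), beside 0.86, and for Dkk3 they were Fmod (0.09), Nadk2 (0.09) and Shox2 (0.10), beside 0.40. Omd, nearest to Wif1, was at 1.55, 4.73 and 6.59 FPKM in Cbx2-/- libraries, against 8.43, 12.4 and 7.60 FPKM in wild-type libraries. The members Sfrp1 (nearest Ehd1, 0.05; Chst7, 0.06; Tmem42, 0.07) and Notum (nearest Zfp932, 0.03; Mcl1, 0.03; Gon4l, 0.04) had spreads on this scale of 0.21 and 0.17. Both genes are low, at 1.10 to 2.26 FPKM for Sfrp1 and 0.924 to 1.64 FPKM for Notum. The scale understates changes at such levels, so their spreads and RMS differences are not comparable with those of abundant genes. With 6 libraries in 2 groups, nearness in this measure describes these libraries only.

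Among the receptors and co-receptors on which the antagonists converge, called genes were higher. Of 11 that could be tested, 3 rose (Fzd1, Fzd4 and Fzd7), 0 fell and 8 did not pass, while 8.8% of all tested genes rose and 8.31% fell. At an unadjusted p under 0.05 by limma, 6 were higher and 0 lower, with no share of all tested genes taken at that level. The median difference was 0.40, beside 0.02 over all tested genes. The receptor gene Fzd1 was at 11, 9.82 and 6.19 FPKM in Cbx2-/- libraries, against 1.37, 2.05 and 2.12 FPKM in wild-type libraries, 4.89-fold higher in Cbx2-/- mice (limma adjusted p = 0.0024). Fzd4, a receptor also used in vessels, was at 3.35, 3.79 and 3.95 FPKM in Cbx2-/- libraries, against 1.01, 1.05 and 1.11 FPKM in wild-type libraries (limma adjusted p = 0.00145). Fzd7 was 1.71-fold higher (limma adjusted p = 0.0281), a call kept in 9 of 17 alternative fits. Beside these genes, the 6 endothelial markers summed to 109, 101 and 143 FPKM in Cbx2-/- libraries, against 70.8, 63 and 65.3 FPKM in wild-type libraries, with none at 0. The 6 marrow stromal markers summed to 541 to 1040.6 FPKM in Cbx2-/- libraries, against 388 to 517 FPKM in wild-type libraries, with none at 0. The 7 adipocyte markers summed to 2026.6 to 2620.1 FPKM in Cbx2-/- libraries, against 217 to 420 FPKM in wild-type libraries, with Lep at 0 in 5 of the 6 libraries. The part of these cell types in the Frizzled values was not tested.

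The partners through which DKK1 and sclerostin act gave no call in the fit of all 6 libraries. Lrp5 was at 17.6, 15 and 17.8 FPKM in Cbx2-/- libraries, against 12.6, 13.9 and 10.9 FPKM in wild-type libraries, with separate groups (difference 0.40, limma adjusted p = 0.0983). Lrp6 was at 4.16, 3.07 and 5.44 FPKM in Cbx2-/- libraries and at 3.83, 3.77 and 3.29 FPKM in wild-type libraries (difference 0.15, limma adjusted p = 0.627). Lrp4, a sclerostin anchor, was at 3.99, 4.01 and 8 FPKM in Cbx2-/- libraries and at 3.22, 4.04 and 3.66 FPKM in wild-type libraries (limma adjusted p = 0.295). Kremen1, a receptor for Dickkopf proteins, was at 3.30, 2.79 and 4.89 FPKM in Cbx2-/- libraries and at 2.15, 2.66 and 3.10 FPKM in wild-type libraries (limma adjusted p = 0.271). Leaving out Cbx2-/- replicates 1 and 2 together keeps a single Cbx2-/- library. The differences were then 0.96 for Lrp4, 0.70 for Kremen1, 0.49 for Lrp5 and 0.48 for Lrp6. Lrp4 and Kremen1 were highest in Cbx2-/- replicate 3, where Sost and Dkk1 were highest, and so were Lrp5 and Lrp6. Other Wnt pathway genes, such as Apc, Dvl3 and Tcf7, were highest there too, while Fzd1 and Dkkl1 were lowest among Cbx2-/- libraries there. No share of all tested genes highest in that library was taken.

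Calls among the other Wnt lists went in both directions, as did those over all tested genes. Over all 6 other lists, 46 of 86 genes could be tested, with a median difference of 0.15. Of the 46, 6 rose, 6 fell and 34 did not pass, while 8.8% of all tested genes rose and 8.31% fell. Of 5 tested ligand and secretion genes, Porcn, which puts the lipid on Wnt ligands, rose 2.15-fold (limma adjusted p = 0.0154), a call kept in 14 of 17 alternative fits and lost without each wild-type library in turn (adjusted p from 0.0525 to 0.0708). The ligand gene Wnt5b fell 1.99-fold (limma adjusted p = 0.0315), a call kept in 7 of 17 alternative fits. None of the 3 tested genes among other secreted inhibitors passed (0 by limma; 1 higher and 0 lower at an unadjusted p under 0.05). That gene was Igfbp4, a secreted protein that can also bind Wnt receptors, at 269, 373 and 219 FPKM in Cbx2-/- libraries, against 191, 196 and 191 FPKM in wild-type libraries (limma adjusted p = 0.142). Of 3 tested R-spondin axis genes, Lgr5, an R-spondin receptor and Wnt target, fell to 0.104, 0.0349 and 0.0472 FPKM in Cbx2-/- libraries, against 1.22, 1.73 and 1.75 FPKM in wild-type libraries (limma adjusted p = 0.00221). Lgr5 reached 1 FPKM only in wild-type libraries, so it passed the filter through the group where it was high. With no filter its limma adjusted p was 0.00313.

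Among 18 tested transducers, 2 rose, 2 fell and 14 did not pass, while 8.8% of all tested genes rose and 8.31% fell. Ctnnbip1, an inhibitor of beta-catenin, rose 2.18-fold (limma adjusted p = 0.00526) and Tcf7l1, a mostly repressive TCF factor, rose 2.41-fold (limma adjusted p = 0.00309). Btrc, which marks beta-catenin for destruction, fell 2.39-fold (limma adjusted p = 0.00288), and Lef1, a nuclear partner of beta-catenin that is also a gene of lymphoid precursors, fell 3.90-fold (limma adjusted p = 0.0091). Beside it, the B cell gene Cd79a was at 35.2, 37.4 and 70.7 FPKM in Cbx2-/- libraries, against 203, 253 and 266 FPKM in wild-type libraries, and the part of B cell content in the Lef1 value was not tested. Of 6 tested feedback and target genes, 2 fell: Wisp1, 3.45-fold (limma adjusted p = 0.0259), and Nkd2, 2.97-fold (limma adjusted p = 0.0238). The call of Wisp1 was kept in 10 of 17 alternative fits and that of Nkd2 in 13. Nkd2 reached 1 FPKM only in wild-type libraries, so it passed the filter through the group where it was high. With no filter its limma adjusted p was 0.0409. Axin2, the standard readout of beta-catenin activity, was under the filter at 0.337, 0.329 and 0.791 FPKM in Cbx2-/- libraries and 0.205, 0.496 and 0.618 FPKM in wild-type libraries, with overlapping groups.

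**Figure D4:**
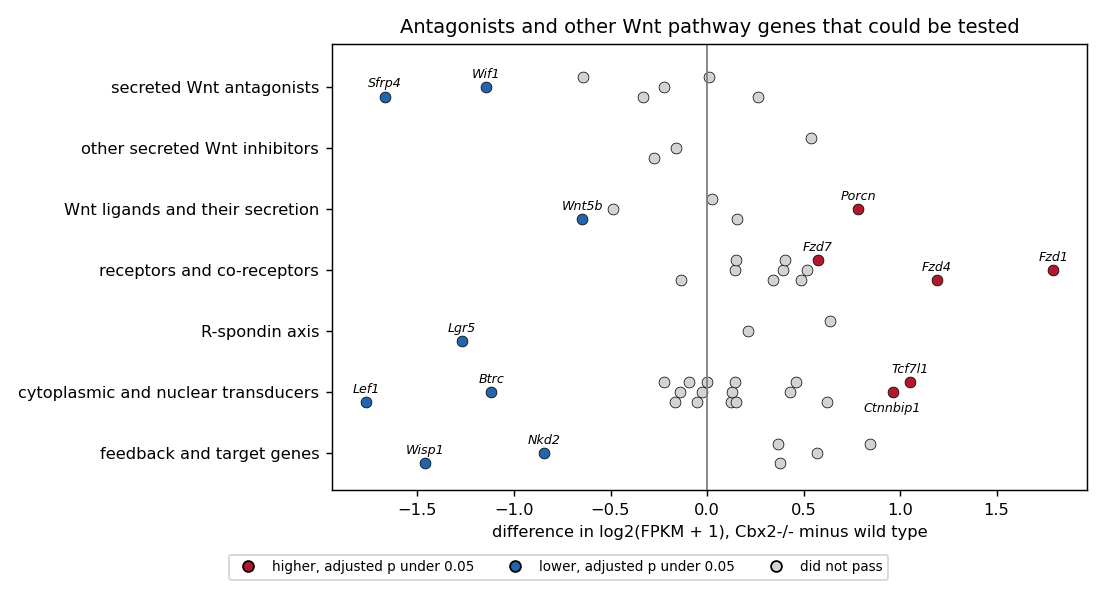
Difference in log2(FPKM + 1), Cbx2-/- minus wild type, for the 7 testable antagonists and the 46 testable genes of 6 other Wnt lists; each point is 1 gene, spread vertically for legibility, red and blue mark genes past the threshold, and grey marks those that did not pass. The 2 called antagonists, Sfrp4 at -1.67 and Wif1 at -1.15, lie left of 0, while the 3 called receptors, Fzd1, Fzd4 and Fzd7, lie right of it.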

How the data were processed

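RNA of tibial and femoral marrow from 3 Cbx2-/- and 3 wild-type mice was sequenced from stranded poly(A) libraries with single-end reads on an Illumina sequencer, per the labels' protocols. FastQC 0.11.5, TopHat2 2.1.0, Cufflinks 2.2.1 and mm10 are named in the submitters' processing notes, with no role, setting or annotation given. The authors deposited FPKM values, 1 column per library, with no read totals in the sources used here. FPKM is relative, so a large change elsewhere in a library shifts every gene.

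Groups follow the sample titles. Values were analysed as log2(FPKM + 1), which understates changes of low genes. Genes reaching 1 FPKM in 3 or more libraries were tested in R 4.3.3 by limma 3.58.1 (moderated with trend, two-sided, no covariate), with Benjamini-Hochberg adjustment over all 12006 genes and a threshold of 0.05. The fit was checked on simulated data. Folds are ratios of mean FPKM, spreads are SD over 3 libraries, and an SE is named as such. Single values were also compared with an exact permutation test over libraries. Differences quoted under alternatives are on the same log2 scale.

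The genes and lists were chosen with earlier results of these data known. Named were all members, every gene of the other Wnt lists past the threshold, Lrp4, Lrp5, Lrp6, Kremen1 and Axin2, and the 3 nearest genes in pattern to each tested member, unnamed gene models and small RNAs left out. Marker genes stand for their lists, and Igfbp4 was added after its values were seen. Loci are from the deposited table, counted from 1, with strand from GENCODE vM21. Alternatives were other pseudocounts (0.1 and 0.5), filters, scalings and limma settings, each library left out, both muscle-bearing Cbx2-/- libraries left out, and the replicate number as a block. Figures were drawn with matplotlib 3.10.9.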

Additional observations from a re-analysis of the deposited data

How the results depend on the processing

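Sfrp4 was the member whose call held in all 17 alternatives run, between -1.94 and -1.48 on the log2 scale. The Wif1 call was lost with a pseudocount of 0.1 (-1.20), with no filter, with a filter on the mean or without the limma trend (-1.15 each), with equal FPKM sums (-1.12), equal upper quartiles (-1.12) or quantile normalization (-1.09), and without both muscle-bearing Cbx2-/- libraries (-0.61). Leaving out 1 library gave -1.41 to -0.80 for Wif1, -0.83 to -0.045 for Dkk1, -0.81 to -0.46 for Dkk3, -1.0 to 0.18 for Sost, -0.13 to 0.086 for Notum and -0.012 to 0.32 for Lrp6. Without both muscle-bearing libraries Dkk1 turned to 0.65 and Sost to 1.33, which assumes that the single remaining Cbx2-/- mouse varies as the rest do. The causes were not tested.

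Members called lower numbered 2 with all libraries and 1 with a pseudocount of 0.1, with a filter on the mean, under each of the 3 scalings, without the trend and without both muscle-bearing libraries; leaving out 1 library gave 1 to 4 (4 without Cbx2-/- replicate 3). Over all settings 3.96% to 22.6% of tested genes were called lower. With no filter the count was 2, but the members were Sfrp4 and Frzb. Over all genes, 1057 were higher and 998 lower. Leaving out 1 library gave 367 to 2069 higher and 475 to 1719 lower genes, the highest counts being those without Cbx2-/- replicate 3, and leaving out both muscle-bearing libraries gave 2047 and 2714. Other Wnt genes called were 6 higher and 6 lower, 4 to 10 and 3 to 7 with 1 library left out, and 13 higher without both muscle-bearing libraries. Scaling moved the median of all tested genes by under 0.1 (log2).

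The replicate numbers showed no consistent pairing of the libraries: deviations of same-numbered libraries correlated at 0.194, -0.179 and -0.103. Not every library correlated best with its own number, though Cbx2-/- replicate 1 did. Deviations from a mean of 3 libraries are not independent of each other, so these correlations cannot exclude pairing. With the replicate block 634 genes were higher and 734 lower, and Sfrp4 and Wif1 stayed past the threshold (adjusted p = 0.01 and 0.047). Depth limits Frzb and Dkk2 most, at a few reads in some libraries.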

Other observations

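The R-spondin genes Rspo2 and Rspo3, whose products amplify Wnt signalling, stood out in 1 Cbx2-/- library and are named after their values were seen. Rspo2 was at 0.699, 3.38 and 0.779 FPKM in Cbx2-/- libraries and at 0.752, 0.766 and 1.07 FPKM in wild-type libraries. Rspo3 was at 2.32, 4.84 and 1.05 FPKM in Cbx2-/- libraries and at 1.14, 1.21 and 1.23 FPKM in wild-type libraries (limma adjusted p = 0.231). Both were highest in Cbx2-/- replicate 2, which also had the highest Sfrp1 (2.26 FPKM), Trabd2b (1.02 FPKM, against 0.281 FPKM or less in the other libraries) and Cxcl12 (873 FPKM, against 439 FPKM or less in the others).

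The decoy receptor gene Tnfrsf11b (osteoprotegerin), a Wnt target in bone, was at 1.57, 1.06 and 4.89 FPKM in Cbx2-/- libraries, against 0.955, 0.958 and 0.405 FPKM in wild-type libraries (limma adjusted p = 0.157). Its highest value lay in Cbx2-/- replicate 3, as for Sost and Dkk1. Dkkl1, a Dickkopf-like gene, ran the other way at 8.60, 12.3 and 1.77 FPKM in Cbx2-/- libraries, against 6.91, 5.89 and 8.07 FPKM in wild-type libraries. These genes were picked after their values were seen and no explanation was tested.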
